A study of Arabidopsis thaliana with 6 samples.

Results

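The genes described are the nuclear genes of *Arabidopsis thaliana* that encode the light-harvesting antenna and the subunits of photosystem I (PSI) and photosystem II (PSII). They were chosen by name from the genome annotation, as 21 antenna loci (6 LHCA and 15 LHCB), 13 PSA loci of PSI and 12 PSB loci of PSII, 46 of the 33555 genes listed. Transcript levels of rosette leaves were determined by RNA-Seq in 3 conditions with 2 biological samples each, 6 libraries in all. The plants were ecotype Col-0, whereas the genotype label of every sample reads WS, and all of them grew in soil at 22 °C with a 12 h photoperiod. Watered plants (W) had been taken out of soil and kept overnight in humid chambers, which all stressed plants had also passed through. Plants of the first stress (S1) were then air-dried for 2 h. Plants of the third stress (S3) had gone through earlier rounds of drying, each followed by 22 h of rehydration, and were sampled in the third drying. Values are FPKM, in which the fragments of a gene are divided by its transcript length and by the mapped fragments of its library, so levels of different genes can be compared per length.

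In thylakoid membranes, antenna proteins bind chlorophyll and carotenoids and pass the absorbed energy to the reaction centres of PSII, which splits water, and of PSI, which reduces ferredoxin. The reaction centre proteins themselves are encoded in the plastid, whereas the antenna and many of the peripheral, stromal and lumenal subunits are made from nuclear genes and imported. Transcripts of these nuclear genes are among the most abundant of a green leaf, depend on light and plastid signals, and are known to be lowered by drought and abscisic acid.

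Several of these proteins are encoded by closely related genes, and which of them a short read came from rests on few bases. LHCB1.1 (AT1G29920), LHCB1.2 (AT1G29910) and LHCB1.3 (AT1G29930, also called CAB1) lie next to each other on chromosome 1. Their coding sequences were 95.6% to 96.4% identical, and LHCB1.1 and LHCB1.2 encode the same 267 residues. The first 75 coding bases, from the TAIR10.1 assembly with its RefSeq annotation, are shown because they carry the differences in compact form. Capitals mark the 8 positions at which the 3 genes are not all alike.
LHCB1.1, chr1:10475818-10475892, minus strand: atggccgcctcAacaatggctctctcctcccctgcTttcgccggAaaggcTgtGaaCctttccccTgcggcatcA
LHCB1.2, chr1:10473172-10473246, minus strand: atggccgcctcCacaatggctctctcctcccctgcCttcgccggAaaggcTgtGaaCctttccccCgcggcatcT
LHCB1.3, chr1:10478071-10478145, plus strand: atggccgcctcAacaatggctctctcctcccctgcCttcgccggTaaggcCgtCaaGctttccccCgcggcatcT

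The 250 bases before the annotated transcript start are shown for LHCB2, PSAH and PSBQ, 3 of the sets of paralogs whose levels went apart under stress. The choice was made by these levels, and LHCB4, which also went apart, is not shown. Capitals mark, on either strand, the G-box CACGTG and the core ACGTGG of the abscisic acid response element, which share bases where CACGTGG occurs, the I-box GATAAG, and CCAATC, a sequence recognised by GLK factors of chloroplast development.
LHCB2.1, chr2:1824481-1824730, minus strand: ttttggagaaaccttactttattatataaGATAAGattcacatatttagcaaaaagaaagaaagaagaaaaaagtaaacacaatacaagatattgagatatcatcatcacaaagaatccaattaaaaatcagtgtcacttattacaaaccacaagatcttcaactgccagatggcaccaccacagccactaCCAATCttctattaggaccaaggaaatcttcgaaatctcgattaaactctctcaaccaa
LHCB2.2, chr2:1800473-1800722, minus strand: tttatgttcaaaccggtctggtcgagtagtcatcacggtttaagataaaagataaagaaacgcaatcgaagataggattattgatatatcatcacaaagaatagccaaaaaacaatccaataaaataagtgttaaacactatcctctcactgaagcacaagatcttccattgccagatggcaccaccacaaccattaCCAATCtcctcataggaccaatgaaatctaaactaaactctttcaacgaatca
LHCB2.3, chr3:10255656-10255905, plus strand: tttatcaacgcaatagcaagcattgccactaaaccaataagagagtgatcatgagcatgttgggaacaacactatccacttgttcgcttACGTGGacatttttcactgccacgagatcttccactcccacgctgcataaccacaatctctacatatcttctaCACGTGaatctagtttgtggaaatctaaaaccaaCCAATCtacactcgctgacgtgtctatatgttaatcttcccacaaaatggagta
PSAH1, chr3:5469595-5469844, minus strand: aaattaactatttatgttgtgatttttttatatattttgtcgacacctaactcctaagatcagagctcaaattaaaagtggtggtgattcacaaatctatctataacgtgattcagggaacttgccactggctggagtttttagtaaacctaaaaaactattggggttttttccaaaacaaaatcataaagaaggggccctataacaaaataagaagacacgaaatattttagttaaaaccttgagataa
PSAH2, chr1:19454548-19454797, plus strand: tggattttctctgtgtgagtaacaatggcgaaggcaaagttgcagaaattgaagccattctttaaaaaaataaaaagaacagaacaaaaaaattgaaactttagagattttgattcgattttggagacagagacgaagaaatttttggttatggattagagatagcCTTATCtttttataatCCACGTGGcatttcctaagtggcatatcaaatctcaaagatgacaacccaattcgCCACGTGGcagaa
PSBQ1, chr4:11334102-11334351, plus strand: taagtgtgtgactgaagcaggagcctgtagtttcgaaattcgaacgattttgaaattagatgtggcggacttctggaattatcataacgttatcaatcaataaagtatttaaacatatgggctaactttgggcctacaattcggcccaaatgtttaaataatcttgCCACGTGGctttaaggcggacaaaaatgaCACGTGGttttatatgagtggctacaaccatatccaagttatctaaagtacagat
PSBQ2, chr4:2673244-2673493, minus strand: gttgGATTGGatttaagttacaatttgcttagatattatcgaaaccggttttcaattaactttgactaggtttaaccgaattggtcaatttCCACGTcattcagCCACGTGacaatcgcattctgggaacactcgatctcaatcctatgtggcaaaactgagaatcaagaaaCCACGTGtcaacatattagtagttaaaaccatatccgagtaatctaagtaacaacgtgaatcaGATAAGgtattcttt

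The LHCB2.1 and LHCB2.2 windows held no G-box, whereas that of LHCB2.3 held 1. The PSAH1 window held none of the motifs searched, and that of PSAH2 held 2 G-boxes. Both PSBQ windows held 2. Such matches describe letters, not bound sites.

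Each library listed between 21139 and 22457 genes above 0 and summed to between 891240 and 974046 FPKM. The values come without read counts per gene, so no counting interval is given. The study reported fewer mapped reads for each W library than for any S1 or S3 library. Reads of W were longer than those of S1 and S3. S3 plants had spent more time out of soil than W and S1 plants. In the comparisons with W these differences cannot be told apart from the stress. In that of S3 with S1, the longer time out of soil cannot be told apart from the repeated stress. The file headers place W and S1 in one run of the authors' expression software and S3 in another, so S3 is set beside W and S1 in the same unit and not within the same run. In whole leaves, fewer cells of a type and less RNA per cell cannot be told apart. The 4 mesophyll markers summed to 11063 to 13207 FPKM in W, 9937 to 14012 in S1 and then 3842 to 4773 in S3, with RBCS1A listed at 0 in W. Without RBCS1A the other 3 summed to 11063 to 13207 in W, 3852 to 4496 in S1 and then 2450 to 3041 in S3. Their sum thus moved with that of the genes described, and the part of these markers in the results was not tested. RCA alone of the 3 had higher replicates in S3 (2147 and 2550) than in S1 (1730 and 1609). The root and seed markers did not exceed 1.68 FPKM in sum in any library, and the trichome gene GL1 was at 0 throughout.

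The 46 loci made up a large part of the leaf transcriptome in watered plants and a smaller one under stress. In W they accounted for 24.3% and 22.4% of the FPKM total of the 2 replicates. In S1 they accounted for 12.2% and 10.5%, and in S3 for 9.21% and 9.77%. No stressed library reached the lower of the W values, and no S3 library reached the lower of the S1 values. Of the 50 genes with the highest FPKM in a library, 32 and 31 were among these loci in W, 21 and 17 in S1 and then 14 and 14 in S3. Summed FPKM was 213341 ± 19770 (SD, n = 2) in W, 110751 ± 11945 in S1 and then 87042 ± 714 in S3, which is 48.1% lower in S1 than in W and 21.4% lower in S3 than in S1. These sums count LHCB1.3, which was listed at 0 in both W libraries. Without that locus the sum was 97398 ± 9805 in S1 and 79008 ± 404 in S3, 54.3% lower in S1 than in W and 18.9% lower in S3 than in S1. With LHCB1.1 and LHCB1.2, its near-identical neighbours, left out as well, it was 51.2% and then 17.2% lower.

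**Figure D1:**
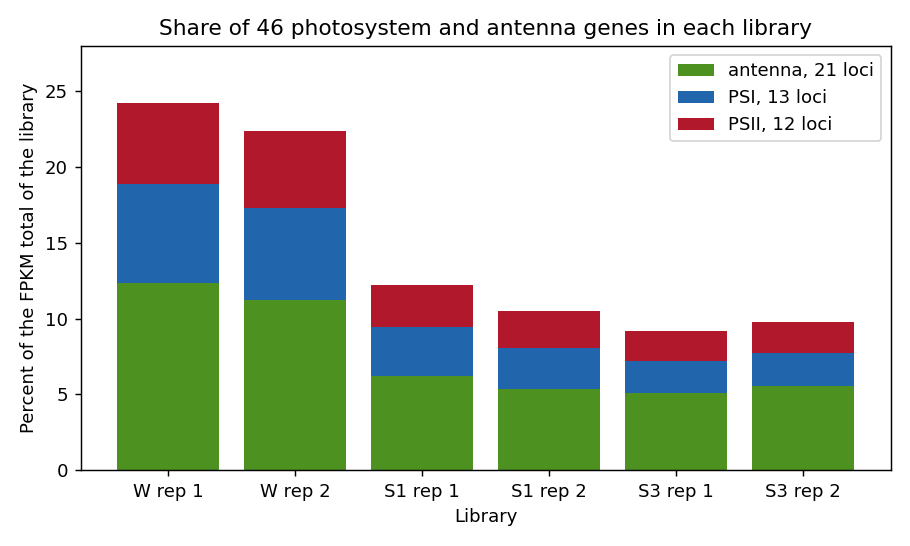
Stacked bars give the percent of each library's FPKM total held by antenna, PSI and PSII genes, with 1 bar per library. The whole bar stands at 24.3% and 22.4% in W, 12.2% and 10.5% in S1 and then 9.21% and 9.77% in S3.

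Response to the first stress was asked by comparing S1 with W. A call needed a limma adjusted p of at most 0.05, a log2 fold change of at least 1 in size, and a level above the 25th percentile, 0.374 FPKM, in at least 1 of the conditions. Standard errors (SE) are those of limma, which pools the spread of a gene with that of other genes at like levels. They are thus not the scatter of the replicates alone. LHCB1.3 was listed at 0 in both W libraries, so its stress response was not measured and the other 45 loci enter the comparisons with W. Of these, 26 were called lower and 0 higher in S1, against a background of 12.1% of all 24759 genes tested called lower and 13.7% called higher. The replicates of 44 loci lay lower in S1 without overlap, and those of LHCB7 lay higher, against 36.1% and 38.8% of all genes tested. No locus was called higher. LHCB7 alone of the 45 was higher at a limma adjusted p within the limit (0.000614), but its log2 fold change of 0.997 fell just short of 1. The count of lower calls fell to 15 without replicate 2 of S1.

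The third stress compared with W gave more calls. In S3, 35 of the 45 loci were called lower and 1, LHCB7, higher, against 14.4% and 15.3% of all genes tested. Replicates lay lower without overlap for 44 loci and higher for 1, against 35.8% and 39.9% of all genes tested. The count of lower calls fell to 23 without replicate 2 of S3. The median log2 fold change of the 45 loci was -1.21 in S1/W and -1.49 in S3/W, and that of all genes tested was 0.00 and 0.01. The comparisons share the W libraries, so their values are set side by side and not counted as separate support.

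**Figure D2:**
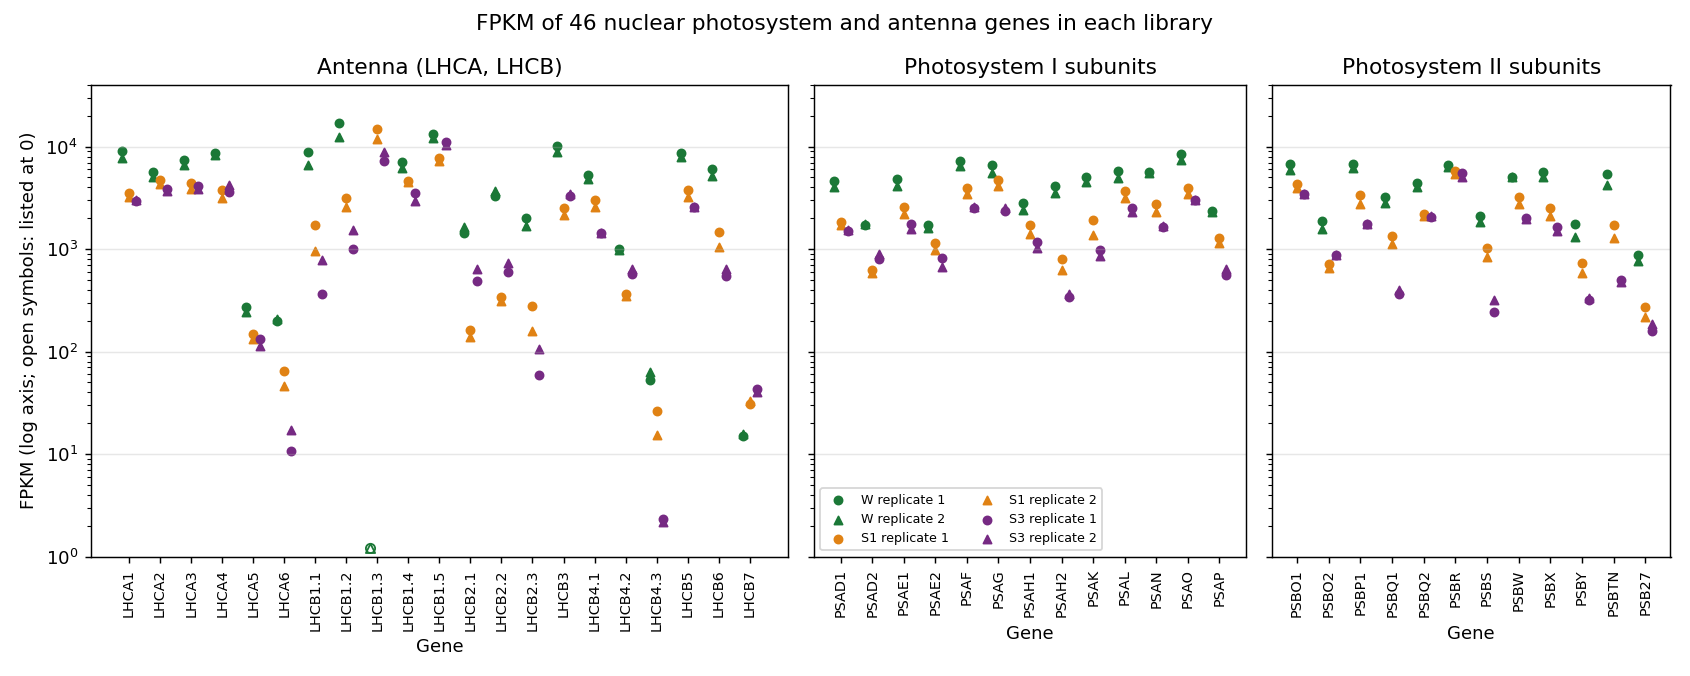
Points give the FPKM of each of the 46 genes in each library on a log axis, with colours for condition and shapes for replicate, in panels for antenna, PSI and PSII. In 44 genes the W points lie above all others, in LHCB7 they lie below, and the open symbols of LHCB1.3 stand for both W libraries listed at 0.

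**Figure D3:**
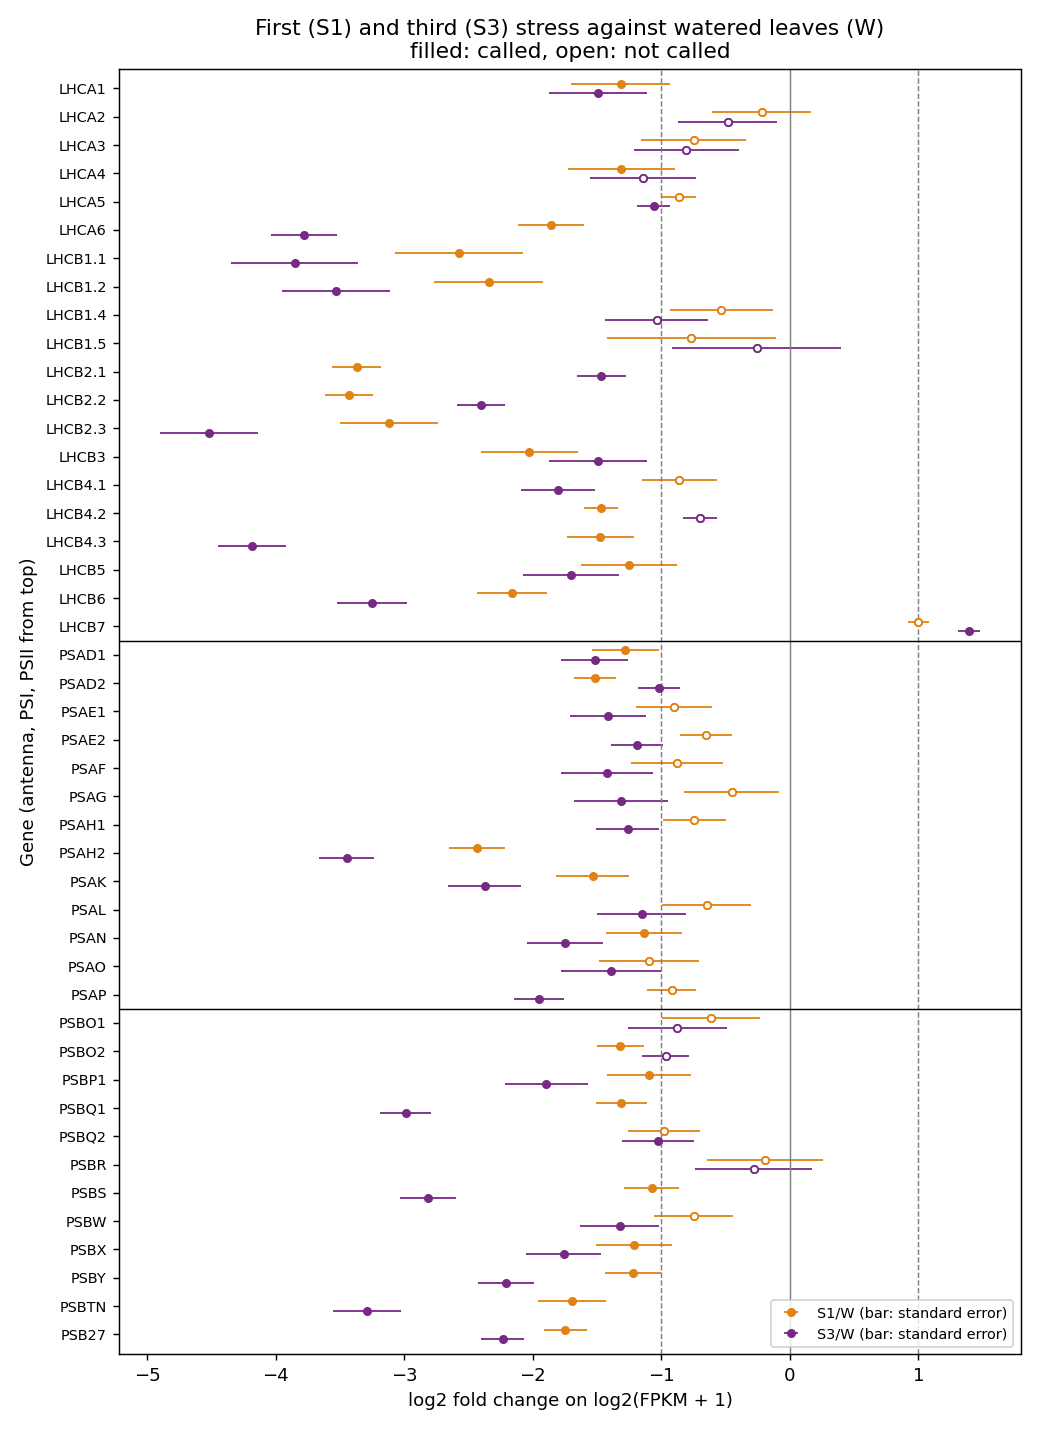
Log2 fold changes on log2(FPKM + 1) of S1/W and S3/W are plotted for 45 genes with standard errors from limma, filled where called. The S3/W values run from -4.51 for LHCB2.3 to 1.39 for LHCB7, and all 13 PSI genes are called lower in S3/W, 6 of them also with each library left out in turn.

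The LHCA proteins form the belt of antenna on one side of PSI, and 3 of these 6 loci were called lower in S1/W and 3 in S3/W. LHCA1 to LHCA4 make up the main belt. LHCA2 had 5616 and 5028 FPKM in W, 4770 and 4364 in S1 and then 3898 and 3701 in S3. Its replicates were lower in each further condition without overlap, but its S3/W log2 fold change of -0.48 ± 0.39 (SE) was not called (adjusted p = 0.344). LHCA4 had 8762 and 8356 FPKM in W, 3742 and 3182 in S1 and then 3573 and 4193 in S3, with a S1/W change of -1.31 ± 0.41 (adjusted p = 0.0459) and a S3/S1 value of 0.17. The S1 and S3 replicates of LHCA4 overlapped, and its S1/W call was lost under 10 of 19 alternatives. LHCA1 fell by 1.32 in S1 (adjusted p = 0.0361), a call lost under 8 of 19 alternatives, among them the omission of any 1 library, and LHCA3 was not called in any comparison.

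LHCA5 and LHCA6 are scarce proteins that link PSI to the chloroplast NDH complex of cyclic electron flow. LHCA6 had 197 and 206 FPKM in W, 65.0 and 46.2 in S1 and then 10.8 and 17.4 in S3. It was lower in each further condition with no overlap between replicates. It fell by 1.86 ± 0.26 in S1/W (adjusted p = 0.00315) and by 1.92 ± 0.26 in S3/S1 (adjusted p = 0.00626). LHCA5 fell by 1.06 in S3/W (adjusted p = 0.00168) from a mean of 257 FPKM in W.

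LHCB1 proteins make up most of the trimeric antenna of PSII, and the 5 genes differed widely. LHCB1.1 had 8892 and 6661 FPKM in W, 1724 and 968 in S1 and then 365 and 776 in S3. LHCB1.2 had 16884 and 12356 in W, 3142 and 2578 in S1 and then 1007 and 1551 in S3. Both stood far below W in every stressed library. LHCB1.1 was called lower in S1/W at -2.57 ± 0.50 (adjusted p = 0.00932), and LHCB1.2 at -2.34 ± 0.42 (adjusted p = 0.00747). LHCB1.3, the neighbour listed at 0 in W, had 14866 and 11840 FPKM in S1 and then 7244 and 8825 in S3, the highest level of the 3 in every stressed library. Its S3/S1 log2 fold change was -0.73 ± 0.18 (adjusted p = 0.0322), short of the fold that a call needs.

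Because of their identity, the 3 neighbours were also taken as a sum, a choice made after seeing the data. The sum was 25776 and 19016 FPKM in W, 19732 and 15386 in S1 and then 8616 and 11151 in S3. The W and S1 sums overlapped, and the S3 sums lay below both. With the sum in place of its members, the S1/W value was -0.35 ± 0.89 (adjusted p = 0.791), the S3/S1 value -0.83 (adjusted p = 0.539) and the S3/W value -1.18 (adjusted p = 0.318). The sum was thus not called against W. However, the W sums take LHCB1.3 at its listed 0, whereas the stressed sums include its high level. With its W level not measured, the sum cannot decide on the calls of LHCB1.1 and LHCB1.2 against W. Of the 75-base windows, 10.4% of LHCB1.1, 3.66% of LHCB1.2 and 10.5% of LHCB1.3 occur in other listed genes. The SE of 0.89 draws on other genes of like level, so the missing S3/W call does not mean that S3 and W sums overlapped. Without the 3 neighbours 24 of 43 loci were called lower in S1/W and 33 in S3/W.

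LHCB1.4 (AT2G34430) and LHCB1.5 (AT2G34420), neighbours on chromosome 2, were not called in any comparison. LHCB1.4 had 7102 and 6176 FPKM in W, 4611 and 4532 in S1 and then 3541 and 2941 in S3. LHCB1.5 had 13428 and 12215 in W, 7779 and 7280 in S1 and then 11130 and 10315 in S3. In S3, LHCB1.5 was thus the most abundant of all 46 transcripts, above its S1 replicates and below its W replicates. Its ratio to LHCB1.4 was 1.89 and 1.98 in W, 1.69 and 1.61 in S1 and then 3.14 and 3.51 in S3.

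LHCB2 proteins share the trimers with LHCB1 and are the ones that, once phosphorylated, let trimers dock to PSI in state transitions. All 3 genes fell in S1 and then went apart. LHCB2.1 (AT2G05100) had 1452 and 1658 FPKM in W, 161 and 139 in S1 and then 490 and 643 in S3. LHCB2.2 (AT2G05070) had 3330 and 3672 in W, 340 and 309 in S1 and then 593 and 734 in S3. LHCB2.3 (AT3G27690) had 2018 and 1685 in W, 278 and 160 in S1 and then 59.6 and 107 in S3. The S3 replicates of LHCB2.1 and LHCB2.2 lay between those of W and S1, whereas those of LHCB2.3 lay below both.

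In S1/W the LHCB2 genes were called lower, at -3.37, -3.43 and -3.12 on the log2 scale (adjusted p = 0.000225, 0.000213 and 0.00202). In S3/S1, LHCB2.1 rose by 1.90 ± 0.19 (adjusted p = 0.00281) and LHCB2.2 by 1.02 ± 0.19 (adjusted p = 0.0148), and LHCB2.3 fell by 1.39 ± 0.38 (adjusted p = 0.0462). LHCB2.1 and LHCB2.2 were the only loci of the 46 called higher in S3/S1. The call of LHCB2.1 was kept under all 18 alternatives, that of LHCB2.2 was lost under 3 and that of LHCB2.3 under 13. All 3 stayed below W in S3, at -1.47, -2.40 and -4.51. The ratio of LHCB2.1 to LHCB2.3 was 0.719 and 0.984 in W, 0.577 and 0.868 in S1 and then 8.22 and 6.03 in S3.

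The LHCB2 split touches genes whose reads are partly shared. Of the 75-base windows of their transcripts, 15.3% of LHCB2.1 and 19.1% of LHCB2.2 occur in the other gene. For LHCB2.3, 37.5% lie in the overlapping neighbour AT3G27700, and the libraries did not mark strand. The LHCB2 sum fell by 3.33 in S1/W (adjusted p = 0.000611), was not called at 0.92 in S3/S1 (adjusted p = 0.0578), and was lower by -2.41 in S3/W (adjusted p = 0.00133).

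LHCB3 belongs to trimers, and LHCB4 (CP29), LHCB5 (CP26) and LHCB6 (CP24) are the monomers between the trimers and the PSII core. LHCB3 fell from a mean of 9518 FPKM in W to 2339 in S1, by 2.02 ± 0.38 (adjusted p = 0.00836). LHCB5 fell by 1.25 in S1/W (adjusted p = 0.039), a call lost under 9 of 19 alternatives, again with any 1 library left out. LHCB6 had 5992 and 5227 FPKM in W, 1480 and 1052 in S1 and then 543 and 637 in S3, a stepwise decline with no overlap. It fell by 2.16 in S1/W (adjusted p = 0.0022) and by 1.08 in S3/S1 (adjusted p = 0.0362), the latter call lost under 10 of 19 alternatives.

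Of the 3 LHCB4 genes, LHCB4.2 took another course than the rest. LHCB4.1 had 5295 and 4821 FPKM in W, 3011 and 2576 in S1 and then 1448 and 1446 in S3. LHCB4.2 had 1007 and 971 in W, 362 and 350 in S1 and then 577 and 643 in S3. LHCB4.3 had 52.6 and 63.8 in W, 26.5 and 15.4 in S1 and then 2.32 and 2.18 in S3. Replicates of LHCB4.1 and LHCB4.3 lay lower in each further condition, and those of LHCB4.2 were lowest in S1. LHCB4.3, a scarce isoform, fell by 1.47 in S1/W (adjusted p = 0.00722) and had a S3/S1 change of -2.71 ± 0.26 (adjusted p = 0.00263), the lowest S3/S1 value of the 46 loci, and both calls were kept under all 19 alternatives. LHCB4.2 fell by 1.47 in S1/W (adjusted p = 0.000817), and its S3/S1 value of 0.77 (adjusted p = 0.0125) was short of the fold needed.

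LHCB7, a rarely expressed antenna gene, went against the rest. It had 15.2 and 15.6 FPKM in W, 30.6 and 32.8 in S1 and then 43.4 and 40.7 in S3. Every stressed replicate was above both W replicates, at levels far below those of the main antenna genes. Its S1/W log2 fold change of 1.00 ± 0.08 (adjusted p = 0.000614) fell just short of the fold criterion, and in S3/W it rose by 1.39 ± 0.08 (adjusted p = 0.000219).

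Of the 13 PSI subunit genes, 5 were called lower in S1/W and all 13 in S3/W. With each library left out in turn, 3 of the 5 and 6 of the 13 calls were always kept, the 6 being those of PSAD1, PSAE2, PSAH2, PSAK, PSAN and PSAP. PSAD and PSAE form the stromal docking site of ferredoxin. PSAD1 had 4658 and 4016 FPKM in W, 1848 and 1716 in S1 and then 1500 and 1519 in S3. PSAD2 had 1708 and 1752 in W, 630 and 579 in S1 and then 809 and 901 in S3. Both paralogs fell in S1, by 1.28 (adjusted p = 0.0109) and 1.52 (adjusted p = 0.00142). PSAD2 had the highest S3/S1 value of the PSI genes, 0.50 (adjusted p = 0.0784), not called, and lay between S1 and W in S3.

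PSAE1 had 4863 and 4091 FPKM in W, 2568 and 2213 in S1 and then 1776 and 1570 in S3. PSAE2 had 1731 and 1615 in W, 1150 and 982 in S1 and then 811 and 662 in S3. Replicates of both lay lower in each further condition, and both were called lower only in S3/W, at -1.42 (adjusted p = 0.0108) and -1.19 (adjusted p = 0.00547).

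PSAH, with PSAL and PSAO, forms the side of PSI at which trimers dock in state transitions. PSAH1 (AT3G16140) had 2847 and 2398 FPKM in W, 1721 and 1412 in S1 and then 1164 and 1017 in S3. PSAH2 (AT1G52230) had 4172 and 3501 in W, 808 and 618 in S1 and then 337 and 363 in S3. PSAH2 was the more abundant paralog in W and the less abundant one in every stressed library. It fell by 2.43 ± 0.21 in S1/W (adjusted p = 0.000742) and by 1.01 ± 0.21 in S3/S1 (adjusted p = 0.0224), the second call being lost under 5 of 19 alternatives. PSAH1 was not called in S1/W at -0.74 (adjusted p = 0.0519).

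The ratio of PSAH1 to PSAH2 was 0.682 and 0.685 in W, 2.13 and 2.28 in S1 and then 3.45 and 2.81 in S3. The ratios of the 3 conditions did not overlap, but 2 against 2 libraries cannot give an exact two-sided permutation p below 0.333. The genes share 87.0% of coding bases. Of the 75-base windows of PSAH1, 48.1% occur in the neighbour AT3G16130, and of those of PSAH2, 15.9% occur in AT1G52240. PSAL and PSAO were called lower only in S3/W, at -1.15 and -1.39, calls lost under 8 and 6 of 19 alternatives.

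PSAF and PSAN lie on the lumenal side where plastocyanin docks, and PSAG and PSAK on the flanks that hold the antenna. PSAN fell by 1.13 in S1/W (adjusted p = 0.0257), a call lost under 8 of 19 alternatives, and PSAK by 1.53 (adjusted p = 0.00801), a call kept under all 19, whereas PSAF and PSAG were called lower only in S3/W. PSAP (AT2G46820), also known as CURT1B, a thylakoid curvature protein, had 2328 and 2278 FPKM in W, 1298 and 1140 in S1 and then 553 and 641 in S3. Its replicates lay lower in each further condition without overlap. Its S1/W value was -0.92 (adjusted p = 0.0124), short of the fold needed, and it fell by 1.03 in S3/S1 (adjusted p = 0.0157), a call lost under 6 of 19 alternatives.

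Of the 12 PSII genes, 8 were called lower in S1/W and 9 in S3/W, of which 5 and 7 were kept with each library left out in turn. PSBO, PSBP and PSBQ are the lumenal proteins that shield the water-splitting cluster. PSBO1 had 6698 and 5919 FPKM in W, 4305 and 3934 in S1 and then 3428 and 3439 in S3. PSBO2 had 1878 and 1564 in W, 717 and 655 in S1 and then 880 and 873 in S3. PSBO1 was not called in any comparison, and PSBO2 fell by 1.32 in S1/W (adjusted p = 0.00303), with its S3 replicates above those of S1. The PSBO1 to PSBO2 ratio was 3.57 and 3.78 in W, 6.0 in both S1 libraries, and 3.90 and 3.94 in S3.

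PSBQ1 (AT4G21280) had 3224 and 2833 FPKM in W, 1328 and 1114 in S1 and then 361 and 400 in S3. PSBQ2 (AT4G05180) had 4457 and 4060 in W, 2222 and 2092 in S1 and then 2067 and 2110 in S3. The paralogs were near each other in W and far apart in S3. PSBQ1 fell by 1.31 in S1/W (adjusted p = 0.00409) and by 1.68 ± 0.20 in S3/S1 (adjusted p = 0.00442), both kept under all 19 alternatives. PSBQ2 overlapped between S1 and S3, with a S3/S1 value of -0.05 ± 0.28 (adjusted p = 0.938). The PSBQ2 to PSBQ1 ratio was 1.38 and 1.43 in W, 1.67 and 1.88 in S1 and then 5.73 and 5.28 in S3, and neither transcript shares a 75-base window with another listed gene.

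PSBS (AT1G44575) senses lumen acidity and is needed for the rapid dissipation of excess light energy as heat. It had 2096 and 1842 FPKM in W, 1028 and 846 in S1 and then 242 and 320 in S3. Each condition lay below the one before it. PSBS fell by 1.07 ± 0.22 in S1/W (adjusted p = 0.0107) and by 1.74 ± 0.22 in S3/S1 (adjusted p = 0.00504), the lowest S3/S1 value of the PSII genes.

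PSBTN (AT3G21055), a small lumenal subunit, had 5422 and 4197 FPKM in W, 1705 and 1276 in S1 and then 495 and 481 in S3. The decline was again stepwise, and its S3/W change of -3.29 ± 0.26 (adjusted p = 0.000454) was the lowest of the PSII genes. PSBR, which helps to bind the lumenal proteins, had 6556 and 6354 FPKM in W, 5824 and 5453 in S1 and then 5576 and 5046 in S3. PSBR had the highest S3/W value of the PSII genes, -0.28 ± 0.45 (adjusted p = 0.638), and was not called in any comparison.

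PSB27, a factor of PSII assembly and repair, fell by 1.75 in S1/W (adjusted p = 0.000965). PSBP1, PSBX and PSBY were also called lower in S1/W, at -1.10, -1.21 and -1.22, and these calls were lost under 8, 4 and 0 of 19 alternatives. The S3/S1 value of PSBY, -0.99 (adjusted p = 0.0244), was just short of the fold needed, as that of PSAH2 was just past it. PSBW was called lower only in S3/W, at -1.32 (adjusted p = 0.0162).

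**Figure D4:**
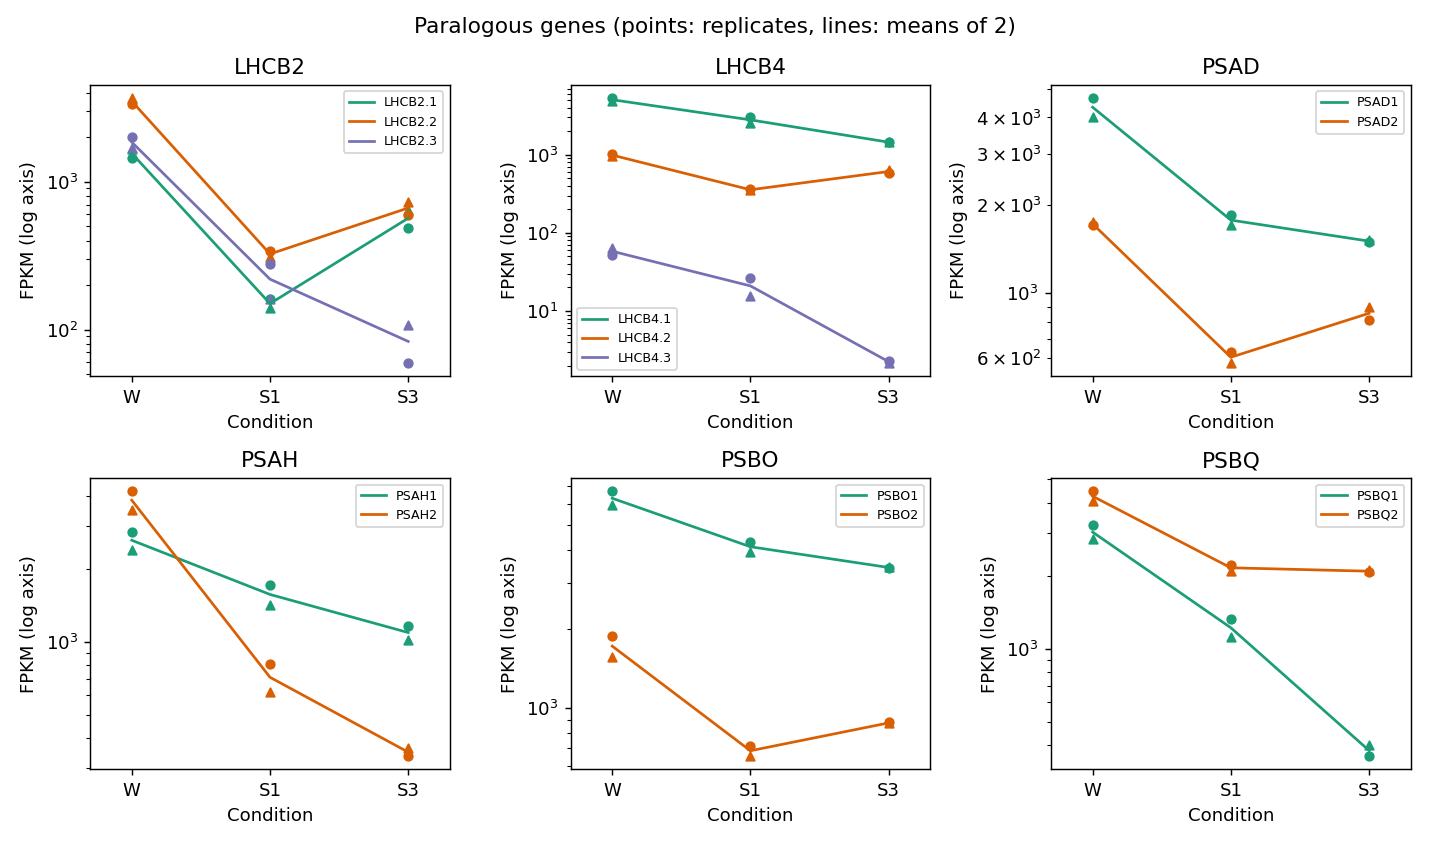
Points give FPKM per replicate and lines the means of 2, on log axes, for the paralogs of LHCB2, LHCB4, PSAD, PSAH, PSBO and PSBQ in W, S1 and S3. LHCB2.1 and LHCB2.2 turn upward from S1 to S3 where LHCB2.3 goes on down, and PSBQ1 drops in S3 to 361 and 400 FPKM where PSBQ2 stays at 2067 and 2110.

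The comparison of S3 with S1 asked whether leaves of a repeated stress, longer out of soil, had another level than those of the first. Of the 46 loci, 9 were called lower and 2 higher, against 6.71% and 5.55% of all genes tested. The count of lower calls fell to 3 without replicate 1 of S1, and to 4 without replicate 1 or without replicate 2 of S3. PSBS, LHCB4.3 and PSBQ1 were called lower with any 1 library left out, and LHCB2.1 was called higher. Replicates lay lower in S3 without overlap for 33 loci and higher for 8, against 33.4% and 33.1% of all genes tested.

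By the response pattern of both steps, with the S1/W sign before the S3/S1 sign, 8 of 45 loci were [-/-]: LHCA6, LHCB2.3, LHCB4.3, LHCB6, PSAH2, PSBQ1, PSBS and PSBTN. LHCB2.1 and LHCB2.2 were [-/+], 16 loci were [-/=], PSAP was [=/-] and 18 loci were [=/=]. An [=] sign records that the criteria were not met and not that the levels were alike. How many of all genes tested showed each pattern was not counted. For the single steps, 12.1% were called lower in S1/W, and 6.71% lower and 5.55% higher in S3/S1. Some of the member calls were lost under alternatives, as given for single loci above.

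The antenna was set beside PSI and PSII by counts, medians and sums. In S1/W, 13 of 20 antenna, 5 of 13 PSI and 8 of 12 PSII loci were called lower, with median log2 fold changes of -1.39, -0.92 and -1.15. In S3/S1 the medians were -0.26, -0.54 and -0.56, with 4 of 21, 2 of 13 and 3 of 12 called lower. In S3/W the medians were -1.49, -1.42 and -1.83, with 13, 13 and 9 loci called lower. Of all genes tested, 12.1% (S1/W), 6.71% (S3/S1) and 14.4% (S3/W) were called lower. No test was made of the difference between the groups.

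Summed over its genes, the antenna was 47.8% lower in S1 than in W and 13.9% lower in S3 than in S1. Without LHCB1.3, listed at 0 in W, it was 60.2% and then 5.88% lower. PSI genes were 49.9% and then 31.3% lower, and PSII genes 46.6% and then 26.7% lower. The ratio of summed antenna to summed PSI FPKM was 1.90 and 1.86 in W, 1.96 and 1.96 in S1 and then 2.38 and 2.53 in S3. Without LHCB1.3 the ratio was 1.48 and 1.51 in S1 and then 2.02 and 2.08 in S3, and W stayed as it was. Both S3 libraries were above all others in this ratio either way. The antenna to PSII ratio was 2.29 and 2.23 in W, 2.23 and 2.18 in S1 and then 2.51 and 2.69 in S3. Without LHCB1.3 it was 1.69 in both S1 libraries and 2.13 and 2.21 in S3, below both W libraries. With LHCB1.1, LHCB1.2 and LHCB1.3 left out, antenna to PSI was 1.47 and 1.51 in W, 1.32 and 1.38 in S1 and then 1.95 and 1.96 in S3, so that S3 stayed highest in antenna to PSI. Antenna to PSII was then 1.78 and 1.81 in W, 1.51 and 1.54 in S1 and 2.06 and 2.08 in S3. S3 was thus highest there too, unlike with LHCB1.3 alone left out. The antenna sum without these 3 genes was 54.6% lower in S1 than in W and 0.448% lower in S3 than in S1.

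The related genes of photosynthesis were counted in the same way. Of 11 nuclear genes for electron carriers and ATP synthase subunits, 7 were called lower in S1/W, 2 lower in S3/S1 and 10 lower in S3/W. Of all genes tested, 12.1%, 6.71% and 14.4% were called lower in these comparisons. The plastocyanin gene PETE2 had 5500 and 4623 FPKM in W, 1949 and 1503 in S1 and then 423 and 488 in S3, a stepwise decline, and the ATP synthase gene ATPD was the other one called in S3/S1. Of the 4 import and assembly genes, 2 were called lower in S1/W. cpSRP43, which carries antenna proteins through the stroma, had 186 and 162 FPKM in W, 22.6 and 17.1 in S1 and then 29.4 and 32.9 in S3, and fell by 3.08 in S1/W (adjusted p = 0.000183).

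Among 6 LHC-like genes, 3 were called lower in S1/W, and in S3/S1 LIL3:1 was called lower and ELIP1 higher. Over all genes tested, 12.1% were called lower in S1/W, and 6.71% lower and 5.55% higher in S3/S1. ELIP1, an early light-induced protein that binds pigments under stress, had 1.77 and 2.64 FPKM in W, 2.07 and 2.99 in S1 and then 18.7 and 24.0 in S3. It thus stood apart in S3 alone, rising by 2.66 in S3/S1 (adjusted p = 0.00202). Of 5 genes of state transitions and cyclic flow, 2 were called lower in S1/W and PGR5 was called higher in S3/S1, by 1.11 (adjusted p = 0.00209), and 1 further gene of the list was not analysed here. Of 10 plastid-encoded photosystem genes, limma called 0 in each comparison, with 0, 1 and 3 at an unadjusted p under 0.05 in S1/W, S3/S1 and S3/W. The medians were 0.37, 0.14 and 0.38. The 3 in S3/W were all higher. There psbB, at 0.85 (adjusted p = 0.0240), and psbD, at 0.80 (adjusted p = 0.0226), were short of the fold needed. psbA stood at 1.70 (adjusted p = 0.0628). These libraries were selected for poly-adenylated RNA, which most plastid transcripts lack, and the level of these genes was low.

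Some markers of other leaf cells moved with the conditions as well, and their part in the results above was not tested. The companion cell gene SUC2 had 52.7 and 44.1 FPKM in W, 237 and 254 in S1 and then 224 and 261 in S3, called higher in S1/W at 2.32. The 3 epidermis markers summed to 105 to 143 FPKM in W, 297 to 330 in S1 and then 250 to 292 in S3. FDH made up most of this sum and was called higher in S1/W at 1.61. ATML1 and PDF1 were not called in S1/W, at -0.16 and -0.36. The 4 guard cell markers summed to 25.1 to 27.4 in W, 43.5 to 45.4 in S1 and then 26.2 to 26.6 in S3, with KAT1 called higher and MYB60 lower in S1/W. Of the 4 mesophyll markers, RBCS2B, CA1 and RCA were called lower in S1/W, and RBCS1A, RBCS2B and CA1 in S3/S1. RCA was not called in S3/S1, at 0.49, and its S3 replicates lay above those of S1.

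Motifs in the 250 bases before the transcript start were counted for the 46 loci beside those of all 27443 protein-coding genes. The G-box CACGTG was in 10 of 46 windows (21.7%), against 6.49% of all. The ACGTGG core was in 13 (28.3%), against 8.23%. The I-box GATAAG was in 9 (19.6%), against 12.3%, and the evening element AAAATATCT in 1 (2.17%), against 2.36%. CCAATC was in 12 (26.1%), against 10.2%, and these were 10 of 21 antenna windows, 0 of 13 PSI windows and 2 of 12 PSII windows.

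The G-box windows belonged to LHCA4, LHCB2.3, LHCB4.1, LHCB6, LHCB7, PSAE2, PSAH2, PSBQ1, PSBQ2 and PSBTN. Of these 10 loci, 5 were called lower in S3/S1, with a median log2 fold change of -0.98, and of the 36 loci without it 4 were called lower, with a median of -0.50. The loci with a G-box nevertheless ranged from -1.68 for PSBQ1 to 0.40 for LHCB7, and PSBQ2, with 2 G-boxes, was not called. LHCB4.3, with the lowest S3/S1 value, and PSBS held no G-box in this window. Both loci called higher in S3/S1, LHCB2.1 and LHCB2.2, were among the 12 with CCAATC, as was LHCB2.3, called lower. Lower calls in S3/S1 numbered 1 of 12 with CCAATC and 8 of 34 without, with medians of -0.05 and -0.55. The ACGTGG core, found mostly at G-box loci, gave 5 of 13 with it and 4 of 33 without. For the I-box they were 2 of 9 and 7 of 37. Of all genes tested, 6.71% were called lower. Whether a motif bears on the change was not tested.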

How the data were processed

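The authors mapped the reads of 6 libraries, 2 each of W, S1 and S3, to TAIR10 (tophat with bowtie, default settings) and computed the deposited FPKM values per gene and replicate with cuffdiff. They were used as deposited. All 24759 genes above 0 in a library were fitted together on log2(FPKM + 1). The tool was limma (3.58.1, under R 4.3.3), the model held condition alone, and variances were moderated by empirical Bayes with a trend, with Benjamini-Hochberg adjustment over all genes tested. Fold changes are on this scale. The labels do not say from how many plants a sample came. The 46 loci, the related lists and the tests were chosen with earlier results of these data known. Every locus could be named, and values in every library were given for the lowest and highest S3/W and S3/S1 change of each subgroup, for paralogs and for loci at 0. A correlation of the deviations of libraries that share a replicate number was checked. Of the identifiers, 32807 (97.8%) were found in the TAIR10.1 RefSeq annotation, which gave coordinates, identities and sequences. Other steps ran in Python 3.11 (biopython 1.88, matplotlib 3.10.9, numpy 2.4.6, pandas 2.3.3, scipy 1.17.1), and the fit was tested on simulated data. Alternatives were other scalings, a pseudocount of 0.1, a mean of at least 1 FPKM, no fold criterion, no variance trend, a fit restricted to the 4 libraries at hand, a block for replicate number, correction for transcript length and GC content, paralog sums, and each library left out.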

Additional observations from a re-analysis of the deposited data

How the results depend on the processing

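No median log2 fold change of the antenna, PSI or PSII loci changed sign under the alternatives run. Leaving out 1 library at a time, lower calls ranged from 15 to 21 (S1/W), 3 to 7 (S3/S1) and 23 to 34 (S3/W), and higher calls from 0 to 1, 1 to 2 and 1 to 1. Summed FPKM was then 44.1% to 52.0%, 14.9% to 27.0% and 56.3% to 61.7% lower, and the PSII median in S1/W lay between -1.28 and -1.0. In S1/W, 1 locus (LHCB7) was called higher in place of 0 with a pseudocount of 0.1, without the fold criterion, and with the GC and length correction with or without the replicate block. In S3/S1, scaling to the same sum left 5 lower calls in place of 9 and turned the calls over all genes from 1662 lower and 1374 higher to 1484 and 1551, dropping the fold criterion gave 4 higher calls in place of 2, and summing LHCB1 and LHCB2 gave 0. Scaling to the same sum outside the 46 loci moved the S1/W medians to -1.69 (antenna), -1.22 (PSI) and -1.45 (PSII), the S3/W medians to -1.66 (PSI) and -2.07 (PSII), and the summed FPKM to 57.7% and 65.5% lower in S1/W and S3/W. That scaling also moved the S1/W median of genes averaging 5 FPKM or more from 0.12 to -0.16 and their S3/W median from 0.17 to -0.06, and 35, 6 and 38 loci were then called lower. The GC and length correction moved the PSI medians to -0.77 (S1/W) and -1.16 (S3/W) and the PSII median to -1.64 (S3/W), with and without the block. Without LHCB1.3, chosen after seeing the data, summed FPKM was 54.3% (S1/W) and 63.0% (S3/W) lower. The cause of these shifts was not tested. Libraries share a replicate number, and the labels do not say whether same-numbered samples were handled together. Their deviations correlated at 0.16 (W and S1), 0.0056 (W and S3) and -0.020 (S1 and S3) over 17453 genes. With 2 libraries per group this cannot decide it. With the number as a replicate block 24, 7 and 35 loci were called lower. With LHCB1.1, LHCB1.2 and LHCB1.3 summed, chosen after seeing the data, 24, 9 and 33 were called lower. The lack of read counts per gene, the lower depth of W, 2 libraries per group and shared reads between paralogs limit all values.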

Other observations

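LHCB1.3 was 1 of 13 genes listed at 0 in both W libraries and at 100 FPKM or more in all 4 stressed libraries, a set noticed after the values were seen. The small RuBisCO subunit gene RBCS1A was another, with 9517 and 6085 FPKM in S1, then 1392 and 1732 in S3. The S3/S1 change of RBCS1A, called lower at -2.29 (limma adjusted p = 0.00325), does not involve the W libraries.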
